A study of Mus musculus with 12 samples.

Results

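The 10 genes described here encode proteins of the tight junction or its scaffold. They were taken by name as 8 claudins (Cldn1, Cldn2, Cldn3, Cldn4, Cldn7, Cldn8, Cldn15 and Cldn23), Tjp1 and Ocln, of 54532 genes in the count files. Colon RNA of male C57BL/6 mice, 6 weeks old before a week of adaptation, was sequenced in 12 libraries, 3 in each of 4 groups. The Con mice carried no DSS, and the sample labels call them untreated where the methods give them the vehicle by gavage. The DSS mice drank 3% (w/v) dextran sulfate sodium (DSS), an agent that damages the lining of the colon, for 5 days. The methods give them the vehicle by gavage as well. The UA+DSS mice drank DSS and were given ursolic acid (UA), a triterpenoid found in many plants, by gavage. The daily dose was 200 mg/kg from 1 day before DSS, for 7 days by the methods. The DSS+UA mice received the same dose from 3 days after the start of DSS, for 4 days. The discussion of the study gives longer durations of UA than its methods do. No group received UA without DSS, so UA on its own was not measured. The mice carry no engineered allele by the sources used here. The labels number the libraries without saying which mouse each came from, so the p-values measure the spread between these libraries.

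Claudins are membrane proteins whose outer loops meet those of the neighbouring epithelial cell and set which ions pass between cells. Sealing claudins, here Cldn1, Cldn3, Cldn4 and Cldn8, lower the passage of ions, while the pore-forming Cldn2 and Cldn15 make channels for small cations. Cldn7 and Cldn23 are grouped apart because their class is less settled, and Cldn7 also sits along the lateral membrane. Ocln, occludin, is another membrane protein of the strand, and Tjp1, known as ZO-1, is the cytoplasmic scaffold that ties the strand to actin. In the colon the epithelium keeps a tighter barrier towards the rectum than towards the caecum.

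Promoter sequence from RefSeq (GRCm38.p6) was at hand for 8 of the 10 genes. Those of the 3 sealing claudins called in DSS against Con and of the pore-forming Cldn2 are shown, to set the letters ahead of genes that rose (Cldn1, Cldn4), fell (Cldn3) or were not called (Cldn2) side by side. Each run is the 250 bases before the start annotated by RefSeq, 5′ to 3′ on the strand of the gene. For Cldn2 the run ends at 139800807, while GENCODE M21, used here for gene lengths, starts the gene at 139800828. Capitals mark every match on either strand to 4 motifs, the TATA box (TATAAA), the GC box (GGGCGG), the AP-1 element (TGANTCA) and the E-box (CACCTG).
Cldn1, chr16:26371840-26372089, minus strand: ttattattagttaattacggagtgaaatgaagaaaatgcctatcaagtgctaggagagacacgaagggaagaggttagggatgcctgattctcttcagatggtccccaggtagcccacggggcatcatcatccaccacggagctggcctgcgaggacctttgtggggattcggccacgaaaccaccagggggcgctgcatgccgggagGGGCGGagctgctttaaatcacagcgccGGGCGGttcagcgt
Cldn4, chr5:134946935-134947184, minus strand: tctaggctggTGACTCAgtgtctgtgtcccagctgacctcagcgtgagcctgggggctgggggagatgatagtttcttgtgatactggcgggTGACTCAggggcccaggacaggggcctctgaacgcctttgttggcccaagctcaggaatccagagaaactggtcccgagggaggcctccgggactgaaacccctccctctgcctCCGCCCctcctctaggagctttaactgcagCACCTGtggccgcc
Cldn3, chr5:134985964-134986213, plus strand: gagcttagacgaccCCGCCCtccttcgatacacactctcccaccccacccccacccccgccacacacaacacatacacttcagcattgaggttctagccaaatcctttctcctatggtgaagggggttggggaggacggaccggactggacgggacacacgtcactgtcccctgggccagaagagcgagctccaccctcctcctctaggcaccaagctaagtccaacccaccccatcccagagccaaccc
Cldn2, chrX:139800558-139800807, plus strand: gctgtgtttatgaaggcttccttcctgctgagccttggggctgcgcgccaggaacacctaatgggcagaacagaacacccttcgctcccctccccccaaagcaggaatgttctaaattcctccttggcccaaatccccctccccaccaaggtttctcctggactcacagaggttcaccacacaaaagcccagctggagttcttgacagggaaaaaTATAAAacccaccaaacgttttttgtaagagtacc

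The Cldn4 stretch held 2 AP-1 matches, a GC box and an E-box. An AP-1 match lies in 6.75% of the 32851 RefSeq stretches of the same length, a GC box in 32.7%, an E-box in 17.2% and a TATA box in 12.4%. The Cldn1 stretch held 2 GC boxes and the Cldn3 stretch 1. The Cldn2 stretch held the TATA box and none of the other 3 motifs. Among the promoters not shown, that of Cldn15, a gene not called in DSS against Con, also held 1 AP-1 match. A promoter each of Cldn7 (not called) and Ocln (called lower) held 2 E-box matches. A match is a string of letters in the window and says nothing of a factor bound there.

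The total count per library was 15566216 to 19498383. Of all genes, 17658 passed the low-count filter of edgeR and were tested, the 10 genes among them, and none of the 10 was lost to the filter. Levels are stated as CPM, the count scaled to its library's size with TMM factors, and as CPM per kilobase of exon wherever genes are compared with each other. A gene was called where edgeR's quasi-likelihood test gave a Benjamini-Hochberg adjusted p under 0.05 over all tested genes, in 1 fit of the 12 libraries. Several libraries stood apart from their group. In Con 1 the summed level of 5 Hox genes of the rectal end was 789 CPM, against 63.2 and 101 CPM in Con 2 and Con 3. In DSS 2 the summed level of 7 leukocyte markers was 15322 CPM, against 927 and 899 CPM in DSS 1 and DSS 3. S100a8 (6822 CPM) and S100a9 (7510 CPM) made up most of the sum in DSS 2. In DSS 3 the summed level of 5 pancreatic acinar markers was 11242 CPM, while in the other 11 libraries it was 30.6 to 554 CPM. The 8 epithelial markers were present in every library, at a summed 6683 to 22615 CPM.

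In the untreated colon the 10 genes spanned a wide range of levels. Cldn7 (395 ± 63.0 CPM per kilobase, SD, n = 3) and Cldn3 (390 ± 69.0) stood at the top, with overlapping ranges, and both lay above every other gene of the set in each of the 3 Con libraries. Cldn15 followed at 84.6 ± 49.5, Cldn2 at 44.8 ± 5.75, Cldn8 at 41.4 ± 10.99, Cldn23 at 32.4 ± 13.0, Ocln at 29.7 ± 5.05 and Cldn4 at 22.1 ± 6.54 CPM per kilobase, and each of these overlapped the next in range. Tjp1 lay below them at 15.7 ± 1.83 CPM per kilobase. Cldn1 was the lowest, at 0.347 ± 0.307 CPM per kilobase, with as few as 10 counts in a library. The top and the bottom were the same in the other groups, where Cldn3 and Cldn7 led and Cldn1 came last. Between them the order differed. Next after the leading pair came Cldn4 in DSS at 54.0 ± 35.7, Cldn15 in UA+DSS at 89.8 ± 8.38 and Cldn2 in DSS+UA at 66.9 ± 3.28 CPM per kilobase, each with a range that overlapped that of the next gene in order.

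**Figure D1:**
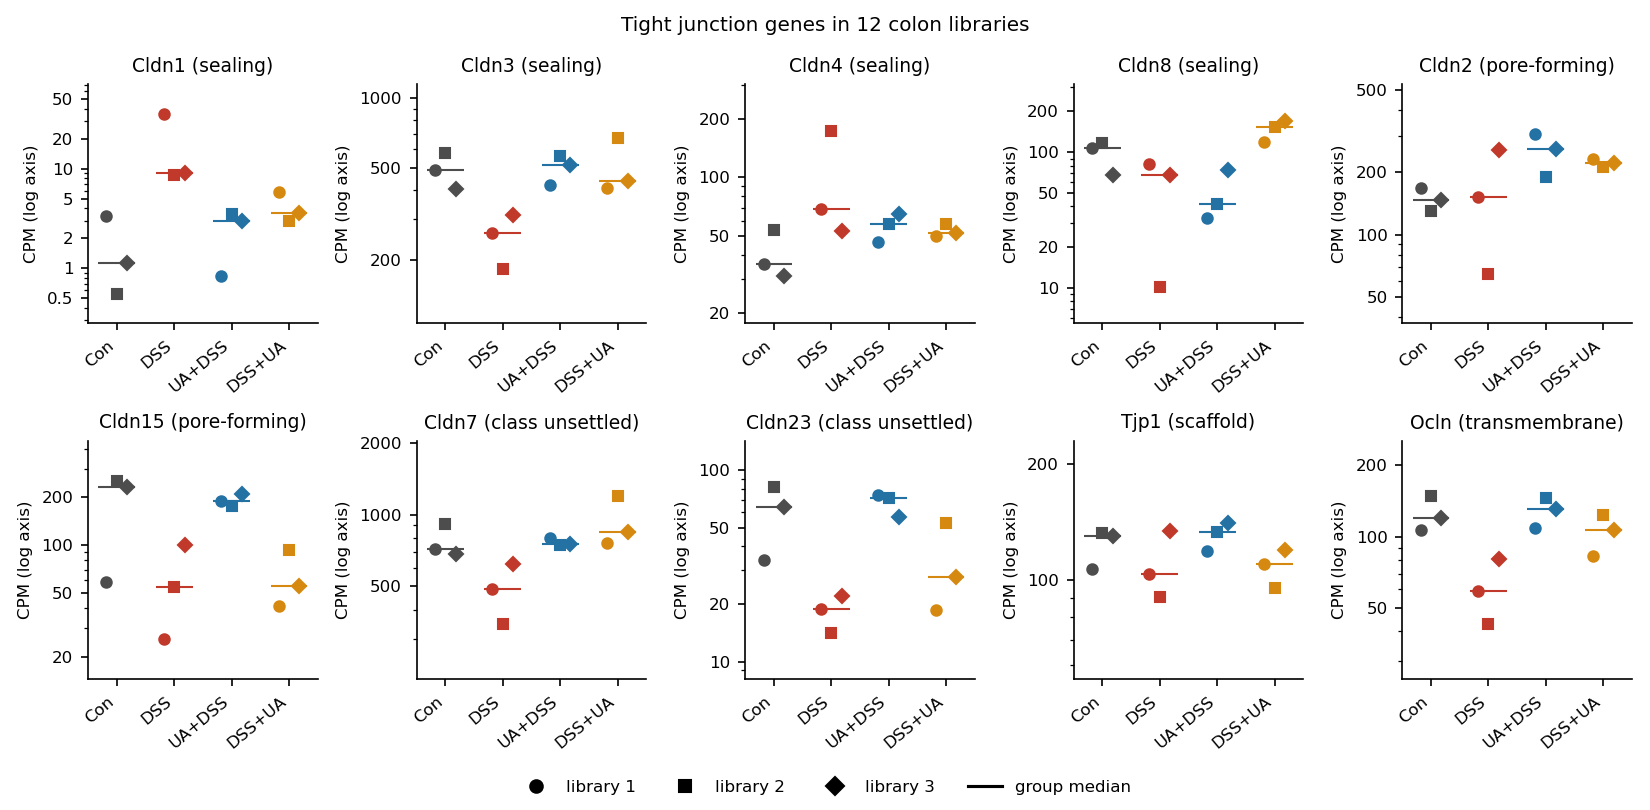
The CPM of each of the 10 genes (log axis, scale differs by panel) is plotted by group, with a symbol for each of the 3 libraries and a line at the group median. Cldn3, Cldn23 and Ocln sit lower in each DSS library than in any Con library, Cldn1 sits higher, and DSS 2 holds the highest Cldn4 (172 CPM) and the lowest Cldn8 (10.2 CPM).

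In DSS colitis 5 of the 10 genes changed against Con. Cldn1 and Cldn4, both sealing claudins, rose, while the sealing Cldn3, the unsettled Cldn23 and occludin fell. The pore-forming Cldn2 and the scaffold Tjp1 showed no call, and neither did Cldn15, Cldn8 or Cldn7. Among all tested genes 13.9% were called higher and 12.6% lower, so 2 of 10 higher and 3 of 10 lower is read against that background. The ranges of the DSS and Con libraries did not overlap for 5 of the 10, where this held for 41.3% of all tested genes. The median log2 fold change was -0.77 over the 10 genes and -0.03 over all tested genes. In bulk tissue, fewer epithelial cells and less RNA per epithelial cell cannot be told apart.

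Cldn1, a claudin of the epidermal barrier that is scarce in the healthy colon, was at 3.36, 0.555 and 1.12 CPM in Con 1, 2 and 3. In DSS it was at 35.6, 8.62 and 9.14 CPM. Each DSS library lay above each Con library, and DSS 1 stood well above the other 2 DSS libraries. The edgeR log2 fold change was 3.40 (SE 0.80, adjusted p = 0.0126), and it stayed called whichever of the 12 libraries was left out (adjusted p = 0.0120 to 0.0446). Leaving out DSS 1 gave 2.39 (adjusted p = 0.0446). In an edgeR fit of the 2 groups alone Cldn1, Cldn3 and Cldn4 were not called (adjusted p = 0.0513, 0.0600 and 0.123), while Cldn23 and Ocln were (adjusted p = 0.0309 and 0.0474).

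Cldn4, a sealing claudin of many tight epithelia, was at 35.8, 53.6 and 31.1 CPM in Con and at 68.6, 172 and 53.1 CPM in DSS. The groups overlapped, since Con 2 lay above DSS 3, and DSS 2 carried most of the difference. The log2 fold change was 1.29 (SE 0.38, edgeR adjusted p = 0.0304). Without DSS 2 it was 0.60 and not called (adjusted p = 0.0917), and without Con 1 or Con 3 the call was also lost (adjusted p = 0.0852 and 0.0887).

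Markers of squamous epithelium, which expresses both Cldn1 and Cldn4 in skin and mouth, were higher in the same DSS libraries. Of 6 such markers 3 passed the filter, and all 3 were called higher (Krt13, Krt14 and Dsg3, log2 fold changes of 6.28, 3.65 and 4.97, edgeR adjusted p = 0.00306, 0.0159 and 0.0114). Krt13 and Dsg3 were at most at 0.214 and 0.259 CPM in Con and passed the filter only through groups given DSS. The filter thus favoured markers high in DSS, and 3 of 3 is not read against the 13.9% of all tested genes called higher. The 6 markers summed to 0.943 to 2.12 CPM in Con and to 13.6, 59.6 and 17.9 CPM in DSS 1, 2 and 3. In DSS 1, 2 and 3 Krt5 was at 3.66, 0.200 and 0.264 CPM and Trp63 at 1.06, 0.250 and 0.317 CPM, both genes of the basal squamous layer. Krt14 was at 2.31, 29.3 and 3.22 CPM, Krt13 at 5.53, 14.1 and 11.04 CPM, Dsg3 at 1.06, 13.6 and 2.64 CPM and Krt6a at 0, 2.15 and 0.370 CPM. DSS 1, with the most Cldn1, was thus highest of its group in 2 of the 6 markers and lowest in the other 4, in which DSS 2, with the most Cldn4, was highest. The DSS+UA libraries held 9.09 to 33.4 CPM of the same sum with Cldn1 at 2.97 to 5.79 CPM. The part of squamous epithelium in the Cldn1 and Cldn4 levels was not tested.

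Cldn3, the most abundant sealing claudin of the colon, was at 487, 579 and 406 CPM in Con and at 260.4, 182 and 313 CPM in DSS. The groups did not overlap, and DSS 2 was the lowest. The log2 fold change was -0.96 (SE 0.26, edgeR adjusted p = 0.0214), and the call was lost without Con 2, DSS 1 or DSS 2 (adjusted p = 0.0752, 0.0566 and 0.0644). Cldn3 lies on chromosome 5 (134986214-134987472) and shares 40 exon bases, 3.2% of its length, with the antisense gene Wbscr25, so that its counts are uncertain to that extent.

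Cldn8, a sealing claudin of the distal colon, was at 108, 116 and 68.1 CPM in Con and at 81.8, 10.2 and 67.6 CPM in DSS. DSS 2 stood far below the other 11 libraries, and the others of DSS lay within or just under the Con range. The log2 fold change of -0.87 (SE 0.59) was not called (edgeR adjusted p = 0.287), and its 95% interval ran from -2.18 to 0.43.

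Of the pore-forming pair, Cldn2, a cation and water channel found in crypts and leaky epithelia, was at 169, 131 and 148 CPM in Con and at 153, 64.8 and 256 CPM in DSS. The DSS libraries lay below, within and above the Con range, and the spread in DSS (SD 95.5 CPM) was far wider than in Con (SD 19.1 CPM). The log2 fold change was 0.08 (95% interval -0.74 to 0.91, edgeR adjusted p = 0.886), so that a change within this interval in either direction could be missed. The interval is not adjusted for the number of genes tested, so somewhat larger changes could also have missed the call. DSS 3 held the most Cldn2 of the Con and DSS libraries and was the library with pancreatic acinar transcripts. UA+DSS 1 and UA+DSS 3 held more Cldn2 (307 and 260.3 CPM), with pancreatic marker sums of 81.4 and 87.4 CPM. The part of pancreatic tissue in its Cldn2 was not tested.

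Cldn15, the cation pore of the small intestine and proximal colon, was at 59.0, 250.4 and 230.0 CPM in Con and at 25.8, 54.5 and 100.5 CPM in DSS. Con 1 lay inside the DSS range and the other 2 Con libraries above it. The log2 fold change of -1.58 (SE 0.57) missed the threshold with edgeR (adjusted p = 0.0640) and passed it with DESeq2 (adjusted p = 0.0180), which called 32.7% of all genes. Without Con 1, the library with the rectal Hox levels, it was -2.00 and called (edgeR adjusted p = 0.0210).

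Cldn23 was at 33.8, 81.3 and 64.4 CPM in Con and at 18.8, 14.1 and 22.0 CPM in DSS. Each DSS library lay below each Con library, and the log2 fold change of -1.71 (SE 0.39, edgeR adjusted p = 0.0110) was the largest fall of the set. Cldn7, which lines the lateral membrane, was at 717, 911 and 683 CPM in Con and at 486, 348 and 621 CPM in DSS, and its log2 fold change of -0.67 (SE 0.25) was not called with edgeR (adjusted p = 0.0686) and was called with DESeq2 (adjusted p = 0.0320). Its groups did not overlap.

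Occludin was at 107, 149 and 120.3 CPM in Con and at 58.9, 42.8 and 80.6 CPM in DSS, without overlap. It fell by 1.05 on the log2 scale (SE 0.24, edgeR adjusted p = 0.0110), and the calls of Ocln and Cldn23 held without any 1 library (adjusted p = 0.00494 to 0.0448 for Ocln and 0.00654 to 0.0426 for Cldn23). Tjp1 was at 106, 133 and 129.7 CPM in Con and at 103, 90.3 and 134 CPM in DSS. The ranges overlapped, and the log2 fold change was -0.17 with a 95% interval from -0.55 to 0.21 (edgeR adjusted p = 0.478).

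The summed level of the epithelial markers moved with several of these genes. The 8 epithelial markers summed to 13037, 16018 and 11541 CPM in Con and to 9298, 6683 and 10664 CPM in DSS, so that each DSS library lay below each Con library, and 2 of the 8 (Esrp1 and Epcam) were called lower. Krt8, Lgals4, Krt19 and Epcam made up most of the sum (33.5%, 26.3%, 16.8% and 12.0% of its counts). The fit was therefore repeated with these marker counts in place of the library size. That scaling moved the median over all genes from -0.034 to 0.60 (log2) in DSS against Con, with 28.6% of genes called higher and 3.21% lower.

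Relative to epithelial marker counts, 3 of the 10 genes were called in DSS against Con. Cldn1 was higher (log2 fold change 3.94, SE 0.83, edgeR adjusted p = 0.00670), Cldn4 was higher (2.12, SE 0.47, adjusted p = 0.00826) and Cldn23 was lower (-1.10, SE 0.32, adjusted p = 0.0210). Cldn3 and Ocln, called in the first fit, were at -0.36 and -0.46 (adjusted p = 0.164 and 0.0886). Cldn7 was at -0.07 (SE 0.20, adjusted p = 0.797). Per 1000 epithelial marker counts Cldn7 gave 55.0, 56.9 and 59.2 counts in Con and 52.2, 52.1 and 58.2 in DSS, with overlapping ranges. Cldn3 gave 37.4, 36.2 and 35.2 counts in Con and 28.0, 27.2 and 29.3 in DSS, a small gap without overlap. Cldn23 gave 2.59, 5.08 and 5.58 counts in Con and 2.02, 2.11 and 2.06 in DSS. The 8 markers do not follow each epithelial cell type alike. In the first fit 6 surface colonocyte markers (Aqp8, Car4 and Guca2a among them) had a median log2 fold change of -1.61, with 0 called. The 8 epithelial markers had a median of -0.56. The part of surface cells in the Cldn23 level was not tested in any comparison.

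**Figure D2:**
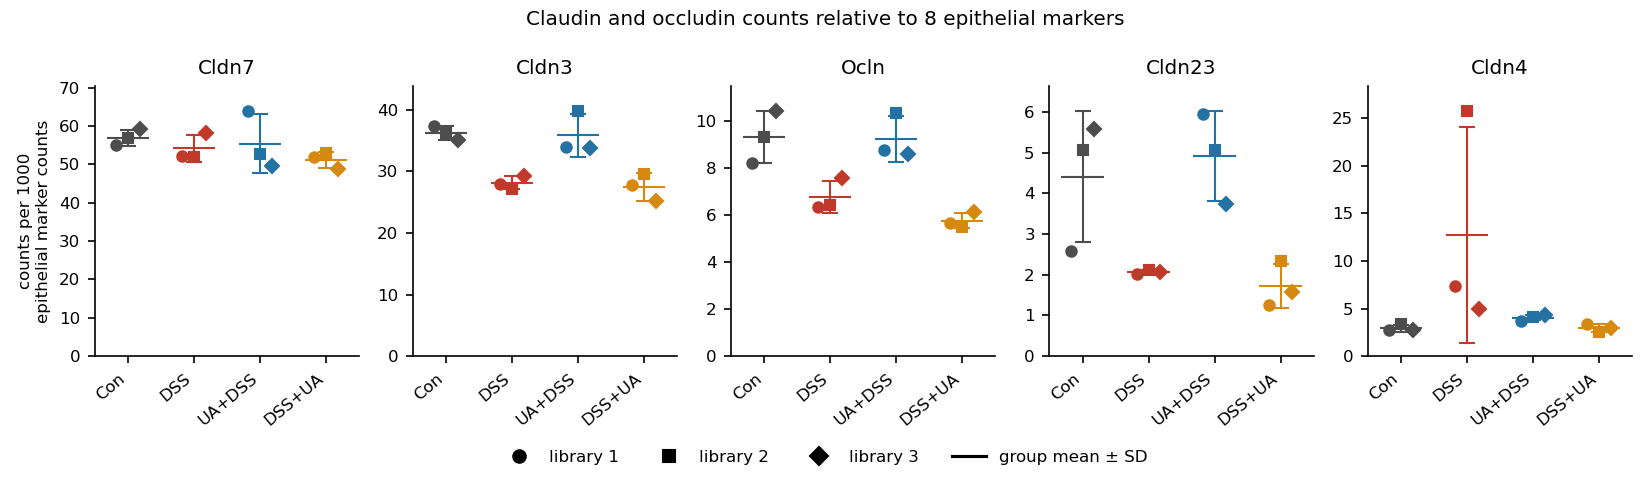
Counts of 5 genes per 1000 counts of the 8 epithelial markers are plotted by group, with a symbol for each library and the group mean ± SD. Cldn7 stays between 48.7 and 64.1 in all 12 libraries, Cldn3, Ocln and Cldn23 are lower in DSS and DSS+UA than in Con and UA+DSS, and the DSS mean of Cldn4 (12.7) rests on DSS 2 at 25.8.

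Ursolic acid given before DSS was compared with DSS alone, which asks whether the early regimen leaves the junction genes at other levels than colitis does. Of the 10 genes 4 changed. Cldn1 was lower and Cldn3, Cldn23 and occludin were higher in UA+DSS. These are 4 of the 5 genes called in DSS against Con, each in the opposite direction, and both comparisons use the same 3 DSS libraries, so the reversal is not independent evidence. With a colon position score as covariate, described further on, edgeR called none of the 4, and the log2 fold change of Cldn1 went from -2.86 to -0.75. The scores of the 2 groups do not overlap. Among all tested genes 8.21% were called higher and 10.5% lower, and 42.8% did not overlap between the groups, against 6 of the 10 here. The median log2 fold change was 0.67 over the 10 genes and -0.019 over all genes.

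Cldn1 was at 0.834, 3.50 and 2.98 CPM in UA+DSS, below each DSS library, and fell by 2.86 on the log2 scale (SE 0.78, edgeR adjusted p = 0.0306). The call was lost without DSS 1 or without any 1 of the UA+DSS libraries (adjusted p up to 0.117), in a fit of the 2 groups alone (0.0592) and with no filter on low counts (0.0638). The squamous marker sum was 0.875 to 2.23 CPM in UA+DSS. Krt13, Krt14 and Dsg3 were all called lower than in DSS, where the limit of the filter given above holds for Krt13 and Dsg3 too.

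Cldn3 was at 422, 562 and 515 CPM in UA+DSS, with a log2 fold change of 0.99 against DSS (SE 0.26, edgeR adjusted p = 0.0271). Cldn23 was at 74.1, 71.4 and 56.9 CPM, and its log2 fold change of 1.88 (SE 0.39, edgeR adjusted p = 0.0143) was the largest rise of the set. Ocln was at 109, 145 and 131 CPM, with a log2 fold change of 1.08 (SE 0.24, edgeR adjusted p = 0.0162). For each of these 3 genes the 3 UA+DSS libraries lay above the 3 DSS libraries. The call of Cldn3 was also lost without DSS 1, DSS 2 or UA+DSS 3 (adjusted p up to 0.104). All 4 calls were lost without UA+DSS 2 (adjusted p = 0.0645 for Cldn23 and 0.0763 for Ocln), and without DSS 3, the library with pancreatic transcripts, 8 of the 10 genes were called.

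Cldn4 lay at 46.4, 57.5 and 65.1 CPM in UA+DSS, within and below the range of DSS, and its log2 fold change of -0.80 was not called (edgeR adjusted p = 0.158). Cldn15 was at 189, 174 and 209 CPM, each above the highest DSS library, and its log2 fold change of 1.66 (SE 0.57) missed the threshold (edgeR adjusted p = 0.0659). Cldn7 was at 797, 744 and 753 CPM, again above DSS without overlap, with a log2 fold change of 0.66 (edgeR adjusted p = 0.0868). Cldn2, at 307, 190.4 and 260.3 CPM, and Cldn8, at 32.8, 41.6 and 74.6 CPM, overlapped DSS and were not called (log2 fold changes of 0.68 and -0.10, edgeR adjusted p = 0.227 and 0.928). Tjp1 was at 118, 133 and 140.4 CPM, with a log2 fold change of 0.26 and a 95% interval from -0.12 to 0.64.

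Relative to epithelial marker counts, Cldn1 (log2 fold change -3.54) and Cldn4 (-1.66) were called lower and Cldn23 (1.25) higher in UA+DSS than in DSS, with edgeR adjusted p of 0.0115, 0.0210 and 0.0141. Under that scaling 2.30% of all genes were called higher and 31.3% lower, and the median of all genes was -0.71. Cldn3 and Ocln were at 0.35 and 0.45 (adjusted p = 0.172 and 0.0932) and Cldn7 at 0.03 (SE 0.20). In the fit scaled to all genes the 6 surface colonocyte markers had a median of 1.25, with 0 called, beside 0.68 for the 8 epithelial markers.

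Ursolic acid given from 3 days after the start of DSS was compared with the same DSS libraries. Of the 10 genes 2 changed, Cldn3 and Cldn7, both higher in DSS+UA. Among all tested genes 2.54% were called higher, and 34.7% did not overlap, against 5 of the 10 here. With library size only, the split of all calls went from 448 higher and 883 lower to 140 and 1003. The median log2 fold change was 0.64 over the 10 genes and 0.02 over all genes.

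Cldn3 was at 408, 670.2 and 437 CPM in DSS+UA, with a log2 fold change of 1.01 (SE 0.26, edgeR adjusted p = 0.0446). Cldn7 was at 759, 1196 and 848 CPM, with a log2 fold change of 0.95 (SE 0.25, edgeR adjusted p = 0.0457). Both lay above DSS without overlap and both sat just inside the threshold. The call of Cldn3 was lost without any of 8 libraries (adjusted p up to 0.173) and that of Cldn7 without any of 9 (up to 0.175), libraries of Con and UA+DSS included, which enter this comparison through the shared spread, filter and scaling. Those libraries are Con 2, DSS 1, DSS 2, the 3 UA+DSS libraries, DSS+UA 2 and DSS+UA 3, and for Cldn7 also Con 3. In a fit of these 2 groups alone neither was called (adjusted p = 0.111 and 0.122), and with the library size alone, which put the median of all genes at -0.11, Cldn7 was not called.

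Cldn1 was at 5.79, 2.97 and 3.60 CPM in DSS+UA, under each DSS library, and its log2 fold change of -2.11 (SE 0.75) was not called with edgeR (adjusted p = 0.0955) and was called with DESeq2 (0.0245), which called 17.8% of all genes. Cldn4 was at 49.7, 57.6 and 51.9 CPM (log2 fold change -0.88, edgeR adjusted p = 0.145). Cldn8 was at 118, 155 and 171 CPM, each above DSS, with a log2 fold change of 1.48 (SE 0.60, edgeR adjusted p = 0.129). Cldn15 was at 41.4, 93.0 and 55.4 CPM, inside the DSS range, with a log2 fold change of 0.07 and a 95% interval from -1.17 to 1.31. Cldn2 was at 233, 211 and 223 CPM, the narrowest spread of any group (SD 10.9 CPM), and overlapped DSS (log2 fold change 0.50, edgeR adjusted p = 0.399). Cldn23, at 18.5, 52.7 and 27.6 CPM, and Ocln, at 82.9, 124 and 106 CPM, had log2 fold changes of 0.85 and 0.78 (edgeR adjusted p = 0.168 and 0.0655). Tjp1 was at 110.1, 95.1 and 119 CPM and its log2 fold change was -0.01 (95% interval -0.39 to 0.36).

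The epithelial markers summed to 14643, 22615 and 17406 CPM in this group. Of the 8, 4 were called higher than in DSS (Krt8, Krt19, Elf3 and Lgals4). Against Con edgeR called none of the 8, and 6 had a log2 fold change above 0. Relative to epithelial marker counts, Cldn1 (log2 fold change -3.03, edgeR adjusted p = 0.0104), Cldn4 (-2.09, 0.00620) and Tjp1 (-1.0, 0.00749) were called lower than in DSS. The median of all genes moved to -1.01 under that scaling, with 0.0227% of genes called higher and 57.7% lower, so that Tjp1 lay at the median of all genes. Cldn3 and Cldn7 were at -0.033 and -0.083 on that scale (adjusted p = 0.884 and 0.719), and at 0.12 and 0.07 with every marker weighted alike, a scaling added after the data were seen.

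**Figure D3:**
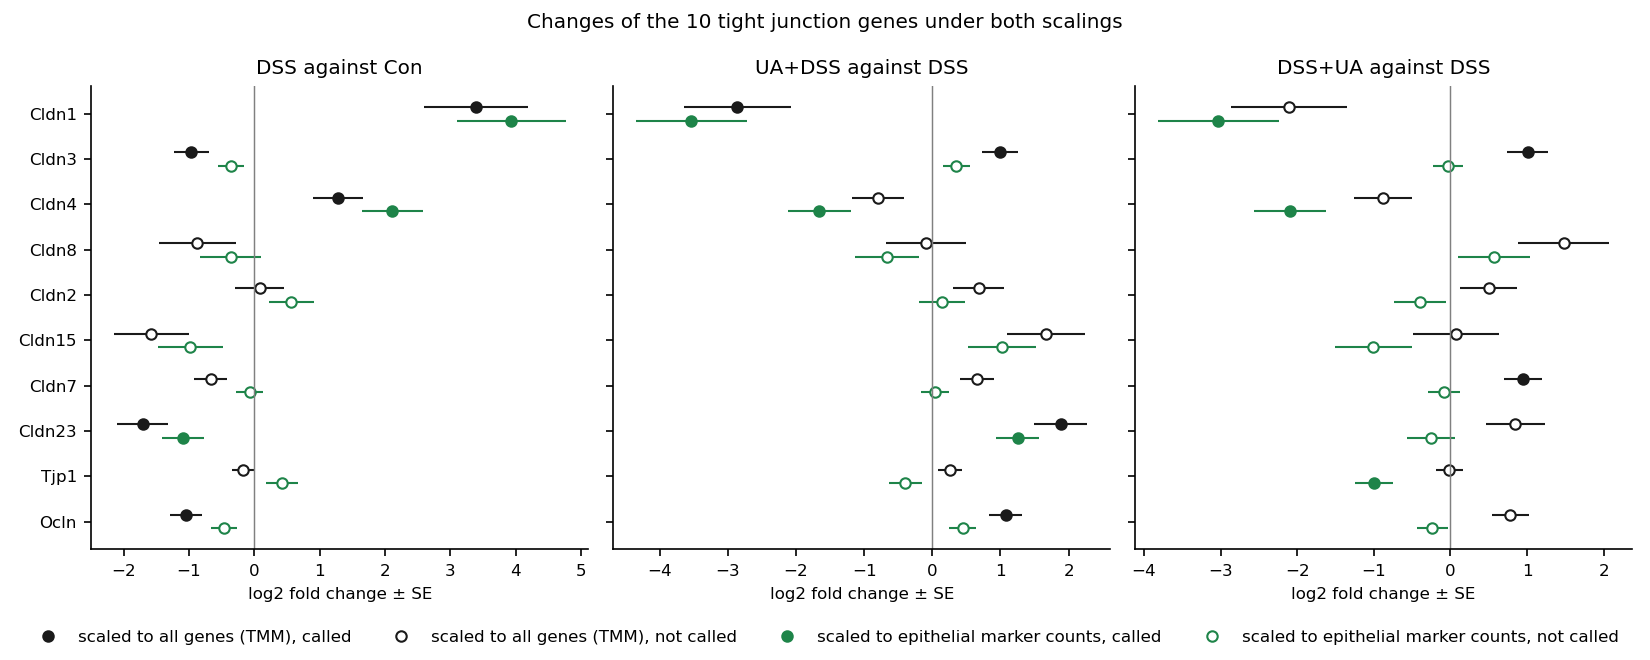
The log2 fold change ± SE of the 10 genes is plotted for 3 comparisons, in black with scaling to all genes and in green with scaling to epithelial marker counts, with filled symbols where a gene was called. Cldn1, Cldn4 and Cldn23 in DSS against Con are called on both scales (green at 3.94, 2.12 and -1.10), while Cldn3 and Ocln are filled only in black.

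Each UA group was also set against Con, with which it shares no library. No gene of the 10 was called in UA+DSS against Con by edgeR, none had an unadjusted p under 0.05, and DESeq2 called none (2.23% of all genes with DESeq2). This was the comparison with the fewest calls in all, 0.00566% of the tested genes, and 1 of the 10, Cldn2, had groups without overlap, where this held for 20.6% of all genes. Cldn2 was the gene farthest from Con in relation to its error (log2 fold change 0.76, SE 0.38, edgeR adjusted p = 0.447), higher in each UA+DSS library than in any Con library. Cldn8 lay at -0.97 (SE 0.59, edgeR adjusted p = 0.513). The 95% intervals of Cldn3 (-0.54 to 0.60), Cldn7 (-0.56 to 0.54), Ocln (-0.49 to 0.56) and Tjp1 (-0.29 to 0.47) bound what could be seen, and do not show that the levels were alike.

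In DSS+UA against Con no gene of the 10 was called by edgeR either, with 18.1% of all genes called. Of the 10, 2 had an unadjusted p under 0.05, Cldn15 (log2 fold change -1.51, SE 0.57, edgeR adjusted p = 0.0863) and Cldn23 (-0.86, SE 0.38, adjusted p = 0.132), and DESeq2 called 1, Cldn15, and 26.7% of all genes. Both had lower means in DSS+UA, with Con 1 inside the DSS+UA range for each. Cldn2 lay at 211 to 233 CPM in DSS+UA, above its 131 to 169 CPM in Con. Cldn8 lay at 118 to 171 CPM in DSS+UA, above its 68.1 to 116 CPM in Con. Neither was called. Relative to epithelial marker counts 3 of the 10 were called lower, Cldn15 (-1.98, edgeR adjusted p = 0.0274), Cldn23 (-1.35, 0.0174) and Ocln (-0.70, 0.0357). Under that scaling 0.883% of all genes were called higher and 13.3% lower. With every marker weighted alike, Ocln was not among them (adjusted p = 0.0874).

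The direct comparison of the early and the late regimen, UA+DSS against DSS+UA, called none of the 10 with edgeR, where 16.8% of all genes were called. For 3 of the 10 the groups did not overlap, against 45.3% of all genes, and the same 3 had an unadjusted p under 0.05. Their log2 fold changes were -1.57 for Cldn8 (SE 0.60, edgeR adjusted p = 0.0930), 1.59 for Cldn15 (SE 0.57, adjusted p = 0.0789) and 1.04 for Cldn23 (SE 0.39, adjusted p = 0.0856). DESeq2 called these 3, and 24.9% of all genes. Relative to epithelial marker counts edgeR called Cldn15 (2.03, adjusted p = 0.0308), Cldn23 (1.51, 0.0124) and Ocln (0.68, 0.0466) higher, with 9.07% of all genes higher and 0.663% lower. Cldn3, Cldn4 and Cldn7 showed log2 fold changes of -0.02, 0.09 and -0.29, with 95% intervals of -0.59 to 0.55, -0.74 to 0.91 and -0.84 to 0.26.

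The same 2 groups lay at opposite ends of a colon position score. Hox genes are transcription factors whose later members are expressed towards the rectum, so the score was the mean log2 CPM of Hoxb13 and Hoxd10 to Hoxd13 less the same mean for Hoxb3 to Hoxb8. It contains no gene of the tight junction. It was -4.88, -5.70 and -4.16 in UA+DSS and 4.11, 4.47 and 5.06 in DSS+UA. The DSS libraries lay between, at 3.10, 1.35 and 0.37. The Con libraries split, with Con 1 at 5.53 and Con 2 and Con 3 at -3.03 and -1.83. The 2 UA regimens and the position of the sampled colon therefore cannot be told apart in a comparison of UA+DSS with DSS+UA.

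Within Con, where no treatment enters, the libraries at different scores also differed in several claudins. Con 1, at the rectal end of the score, held 59.0 CPM of Cldn15, against 250.4 and 230.0 CPM in Con 2 and Con 3. It held 33.8 CPM of Cldn23, against 81.3 and 64.4 CPM, and 3.36 CPM of Cldn1, against 0.555 and 1.12 CPM. Cldn8, at 108 CPM, lay between the other 2. These are 3 libraries, with 1 at the rectal end, and no test was made of them alone.

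The slope on the score was then tested within groups, in a fit that held the 4 groups and the score over the 12 libraries. No gene of the 10 was called by edgeR, where 1.27% of all genes were, and DESeq2 was not run for it. Of the 10, 2 had an unadjusted p under 0.05. Cldn15 fell by 0.27 on the log2 scale per unit of score (SE 0.069, adjusted p = 0.0834), and Cldn1 was at 0.29 (SE 0.10, adjusted p = 0.178). Cldn23 was at -0.13 (SE 0.060, adjusted p = 0.272). The slopes of the other 7 ran from -0.050 for Ocln to 0.053 for Cldn8 (SE 0.10). Con 1 carried much of this fit, and without it the SE of the Cldn15 slope grew to 0.19 (slope -0.41, adjusted p = 0.9999).

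**Figure D4:**
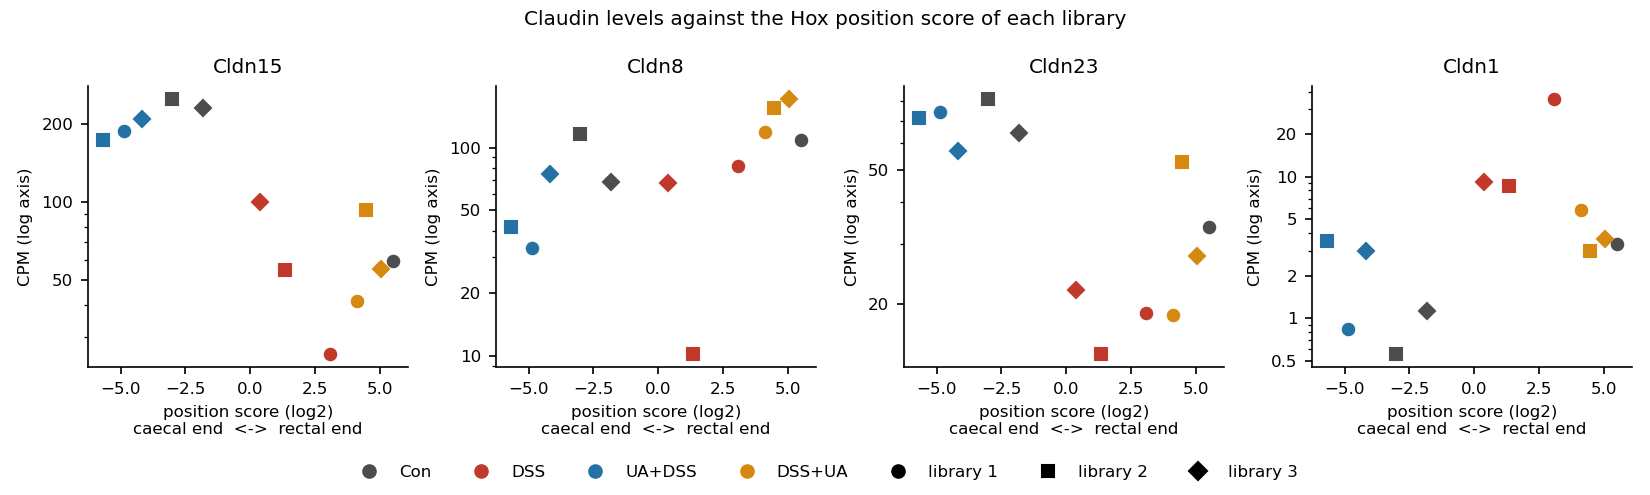
The CPM (log axis) of 4 claudins is plotted against the position score of each of the 12 libraries, coloured by group with a symbol for each library. Cldn15 is at 174 to 250.4 CPM in the 5 libraries below 0 and at 25.8 to 100.5 CPM in the 7 above it, while Cldn8 is highest in DSS+UA and DSS 2 stands apart at 10.2 CPM.

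With the score as a covariate the calls shifted. In DSS against Con 6 of the 10 genes were called, Cldn15 (log2 fold change -1.07, edgeR adjusted p = 0.0492) joining the 5, among 30.5% of all genes. In UA+DSS against DSS edgeR called none, 1 had an unadjusted p under 0.05 and 0.0170% of all genes were called. The estimate of Cldn15 went from 1.66 to 0.03 (SE 0.52) and that of Cldn1 from -2.86 to -0.75 (SE 0.98). Cldn3, Cldn23 and Ocln were at 0.89, 1.02 and 0.75 (adjusted p = 0.224, 0.260 and 0.233). In DSS+UA against DSS edgeR called none, 6 had an unadjusted p under 0.05 and 1.13% of all genes were called, while Cldn3 and Cldn7 stayed at 1.05 and 1.03 (adjusted p = 0.0793 and 0.0738). The scores of neither UA group overlap those of DSS (0.37 to 3.10 in DSS, 4.11 to 5.06 in DSS+UA), so that the values of both comparisons rest on carrying the slope across a gap.

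The balance of sealing and pore-forming transcripts was set out per kilobase of exon, as sums that are descriptions only. The 4 sealing claudins summed to 453, 539 and 369 CPM per kilobase in Con, to 287, 245 and 308 in DSS, to 375, 496 and 477 in UA+DSS and to 403, 630.3 and 449 in DSS+UA. Cldn3 alone made up 85.3% to 87.4% of that sum in Con and 58.8% to 80.6% in DSS. Cldn2 and Cldn15 together summed to 78.5, 157 and 153 CPM per kilobase in Con, to 58.1, 45.1 and 124 in DSS, to 181, 139 and 177 in UA+DSS and to 89.6, 107 and 93.2 in DSS+UA.

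The share of pore-forming transcripts among the 6 genes was 14.8%, 22.6% and 29.3% in Con and 16.9%, 15.5% and 28.7% in DSS, with nearly the same range. It was 32.6%, 21.9% and 27.0% in UA+DSS and 18.2%, 14.6% and 17.2% in DSS+UA, and these 2 groups did not overlap. The make-up inside each class also differed. Cldn3 exceeded Cldn4 by 15.6-fold to 19.6-fold per kilobase in Con, by 5.47-fold, 1.52-fold and 8.48-fold in DSS, and by 11.4-fold to 16.8-fold in the UA groups. Cldn2 made up 64.6% of the pore-forming sum in Con 1 and 25.0% and 29.1% in Con 2 and Con 3. It was 59.2% to 78.3% in DSS+UA, 41.1% to 51.0% in UA+DSS and 43.2% to 79.1% in DSS.

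The ratio of Cldn8 to Cldn15 per kilobase was 0.157, 0.216 and 0.321 in UA+DSS and 2.58, 1.498 and 2.79 in DSS+UA. In Con it was 1.65 in Con 1 and 0.419 and 0.267 in Con 2 and Con 3. In DSS it was 2.85, 0.169 and 0.607. Libraries with a position score above 3 had a ratio above 1, and the other 7 had a ratio below 1, DSS 2 and DSS 3 among them. The cut at 3 was not set in advance. At a cut of 0 DSS 2 and DSS 3 would break the split, and the ratio also goes with the groups.

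**Figure D5:**
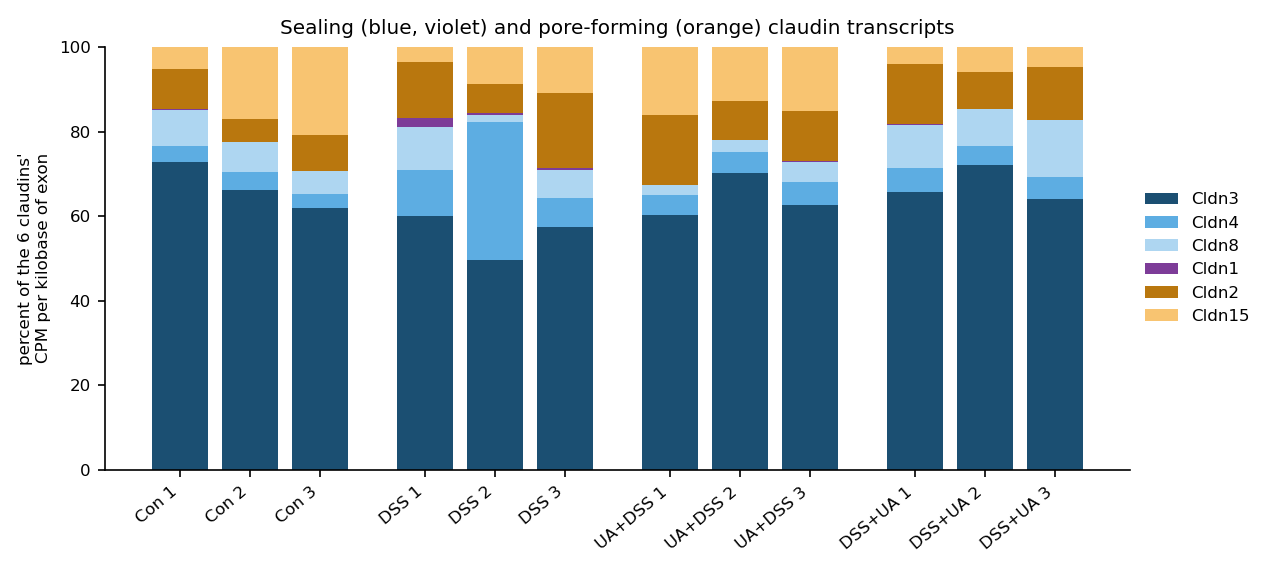
Stacked bars give the percent that each of 6 claudins makes of their summed CPM per kilobase of exon in each library, with sealing claudins in blue and violet and pore-forming ones in orange. Cldn3 is the largest share in every library, Cldn4 widens in DSS 2, and Cldn15 is narrow in Con 1, DSS 1 and DSS+UA.

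Other claudins were mostly absent. Of 17 other genes of the family in the files, 5 passed the filter, and Cldn25 was not matched. Cldn12, a claudin with an atypical cytoplasmic tail, was at 79.3, 68.2 and 74.2 CPM in Con and 45.0, 27.8 and 59.1 CPM in DSS, and was called lower (log2 fold change -0.75, edgeR adjusted p = 0.0302). Cldn10, a channel-forming claudin of the kidney, was called higher in DSS (2.34, edgeR adjusted p = 0.0389) at 2.32 CPM or less. Cldn14, a sealing claudin of kidney and inner ear, was at 13.7 CPM in Con 1, 10.97 CPM in DSS 1 and 10.8 to 15.9 CPM in DSS+UA, and at 0.962 to 3.22 CPM in the other 7 libraries. It was called on the position score (slope 0.36, SE 0.059, edgeR adjusted p = 0.0234) and in UA+DSS against DSS+UA (-3.50, SE 0.78, edgeR adjusted p = 0.0165). Cldnd1, a claudin-domain protein, was called on the score in the other direction (slope -0.14, SE 0.023, edgeR adjusted p = 0.0234). It was at 27.4, 70.3 and 59.0 CPM in Con 1, 2 and 3 and at 49.8 to 61.6 CPM in the other 9 libraries. UA+DSS and DSS+UA, at opposite ends of the score, held 51.0 to 56.9 and 49.8 to 54.1 CPM of it. Con 1 lay far below the rest, and the Cldnd1 slope without Con 1 was not examined.

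Of 26 partners of the tight junction, all tested, 6 were called lower and none higher in DSS against Con, 10 higher and 1 lower (Jam2) in UA+DSS against DSS, and 5 higher and 3 lower in DSS+UA against DSS. Their median log2 fold changes in these 3 comparisons were -0.41, 0.55 and 0.36, beside -0.03, -0.02 and 0.02 over all genes. The 8 epithelial markers had medians of -0.56, 0.68 and 0.95, and the part of epithelial content in the partner levels was not tested. With the position score as covariate edgeR called 3 of 17658 genes in UA+DSS against DSS, so that at most 3 partners could have kept a call. Of all tested genes 12.6% were called lower and 13.9% higher in the first, 8.21% higher and 10.5% lower in the second, and 2.54% higher, with 883 of 17658 lower, in the last. In UA+DSS against Con edgeR called no partner, and 1 had an unadjusted p under 0.05 (12.1% of all genes did). Marveld2 (tricellulin), the occludin relative at corners where 3 cells meet, was at 47.1, 54.2 and 46.5 CPM in Con and 21.2, 21.2 and 29.5 CPM in DSS (log2 fold change -1.04, SE 0.16, edgeR adjusted p = 0.00250). It was higher again against DSS in both UA groups (0.87 and 0.81, adjusted p = 0.00999 and 0.0202). Prkcz, an atypical kinase of the polarity complex, was called lower in DSS (-1.37, edgeR adjusted p = 0.00468) and higher in UA+DSS (1.70, 0.00749). Jam2 and Jam3, adhesion molecules that endothelium also expresses, were called lower in DSS+UA than in DSS (-1.58 and -1.32, edgeR adjusted p = 0.00867 and 0.0134). The 4 endothelial markers summed to 223 to 338 CPM in DSS and 78.7 to 89.1 CPM in DSS+UA, and the part of endothelium was not tested.

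Lsr, an angulin that recruits tricellulin, was at 82.5, 112 and 89.5 CPM in DSS+UA and at 33.6 to 56.2 CPM in the other 9 libraries, and was called in DSS+UA against Con (1.17, edgeR adjusted p = 0.00683), where Jam3 and Jam2 were called lower (-1.26 and -1.04, edgeR adjusted p = 0.00639 and 0.0143). In UA+DSS against DSS+UA Lsr was called lower (-1.27, edgeR adjusted p = 0.00748) and Jam3 and Prkcz higher (0.87 and 0.89, 0.0232 and 0.0343). Ildr1, another angulin, was highest in UA+DSS (399, 390 and 315 CPM) and was called against DSS (1.59, SE 0.36, edgeR adjusted p = 0.0171). Of 12 genes of adherens junctions and desmosomes 1 was called lower in DSS against Con (Ctnnd1, p120 catenin, -0.64, edgeR adjusted p = 0.0188), 1 higher in UA+DSS against DSS (Dsg2, 0.96, adjusted p = 0.0341) and none by edgeR in DSS+UA against DSS, where 5 had an unadjusted p under 0.05, as did 29.9% of all tested genes. Over all genes 12.6% were called lower in the first and 8.21% higher in the second, so 1 of 12 is near or below the background.

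Among 13714 other genes with enough counts to compare, those whose log2 CPM followed each claudin most closely over the 12 libraries were listed by Pearson's r, as a description. Cldn3 was nearest to Higd2a (0.987), Thap4 (0.984) and Apool (0.980), and Cldn15 to Cgref1 (0.976), Bace2 (0.961) and Pcsk7 (0.961). Cldn8 was nearest to Oxct1 (0.958), a ketone body enzyme of mitochondria, Acsm3 (0.956) and Nrap (0.941). Cldn1 was nearest to Mgp (0.946), Cxcl13 (0.914) and Snx8 (0.898), and Cldn4 to Bcl2l1 (0.945), Fgd3 (0.945) and Stat6 (0.938). Cldn2 had the weakest of these, Fut2 (0.902), Gm14269 (0.890) and Itpr3 (0.885). Among the 10 genes themselves r was highest between Cldn3 and Ocln (0.942) and Cldn3 and Cldn7 (0.936), and Cldn8 and Cldn15 gave -0.09. The points share their groups, the epithelial marker level and the position of each library.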

How the data were processed

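Total RNA of mouse colon was sequenced on an Illumina platform, and the labels gave each library's group and number. The submitters' processing notes name FastQC, HISAT2, Cuffdiff and the build GRCm38. The methods credit the gene read counts to HISAT2, an aligner, and state no separate counting program, strand setting, annotation release or version. The deposited values are the authors' raw read counts by gene ID, at 15566216 to 19498383 per library. No 2 libraries of a group agreed within sampling noise.

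From these counts edgeR 4.0.16 (R 4.3.3) kept 17658 genes by filterByExpr, which held 99.8% of counts, scaled them by TMM (factors 0.871 to 1.09) and fitted 1 robust quasi-likelihood model to 4 groups, with a biological coefficient of variation of 0.352. Adjusted p is Benjamini-Hochberg over all tested genes, threshold 0.05. Gene lengths are exon unions of GENCODE M21. log2 CPM used a prior count of 2. The fit was checked on simulated data.

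The 10 genes and all lists were chosen with earlier results of these data known. Named were the 10 genes in every library, of each other list at most the 3 tested genes of smallest p in a comparison (squamous and library-quality markers by their role, the squamous ones in full for DSS), and the 3 genes most like each sealing or pore-forming claudin (mean log2 CPM 1 or more). Jam2 in UA+DSS against DSS and the epithelial markers outside this rule were picked with their values known. The alternatives tried were DESeq2 1.42.0, library size only, other filters, a 2-group fit, the replicate number as a block, the position score as covariate, epithelial marker counts as library size and leaving out each library.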

Additional observations from a re-analysis of the deposited data

How the results depend on the processing

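In counts of the 10 genes called, the calls against the threshold depended on the setting more than the directions did. DSS against Con gave 5 calls, and 2 in a fit of the 2 groups alone (Cldn23 and Ocln) and 3 with either epithelial scaling. UA+DSS against DSS gave 4, and 0 with the position score as covariate. DSS+UA against DSS gave 2, and 4 with DESeq2, 1 with library size only, 0 in the 2-group fit, 0 with the replicate block and 0 with the position score. DSS+UA against Con gave 0, and 1 with DESeq2, 3 per epithelial marker count and 2 with every marker weighted alike. UA+DSS against DSS+UA gave 0, and 3 with DESeq2, 2 in the 2-group fit, 1 with the replicate block (Cldn15), 3 per epithelial marker count and 2 with every marker weighted alike. The other planned settings left these counts within 1.5 times, and UA+DSS against Con and the position slope stayed at 0 under every setting run. Only the size of each count was compared there, not which genes were called. Per epithelial marker count, DSS+UA against DSS called Cldn1, Cldn4 and Tjp1 lower, in place of Cldn3 and Cldn7 higher.

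Leaving out 1 library gave 3 to 7 calls in DSS against Con, 0 to 8 in UA+DSS against DSS, 0 to 3 in DSS+UA against DSS, 0 in UA+DSS against Con, 0 to 1 in DSS+UA against Con, 0 to 1 in UA+DSS against DSS+UA and 0 for the position slope. The replicate block otherwise added Cldn15 to the calls in DSS against Con and, in UA+DSS against DSS, had Cldn15 in place of Cldn1. The count in DSS against Con was 3 without DSS 2, and that in UA+DSS against DSS was 2 without DSS 1 or UA+DSS 3 and 0 without UA+DSS 2. Same-numbered libraries correlated at -0.22 to 0.19 in their deviations from group means. These values gave no sign that the numbers pair the samples, and the labels do not say whether they do. Over all genes DESeq2 called 175 higher and 199 lower in UA+DSS against Con, where edgeR called 1 gene, and 1207 and 1900 in DSS+UA against DSS, where edgeR called 448 and 883.

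A direction was read only from a called value or one farther from 0 than its SE. Of those, the log2 fold change turned for Tjp1 in UA+DSS against DSS (-0.40 and -0.38 under the 2 epithelial scalings), in DSS+UA against DSS per epithelial marker count for Cldn2 (-0.40), Cldn3 (-0.033), Cldn7 (-0.083) and Ocln (-0.24), and in UA+DSS against DSS+UA with the position score for Cldn1 (2.01) and Cldn15 (-0.97). The epithelial scalings move the median of all genes. For the other settings the cause was not tested. With 3 libraries per group, small changes could be missed.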
